A study of Mus musculus with 6 samples.

Results

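Mitochondrial ribosomal proteins are the nuclear-encoded proteins of the mitochondrial ribosome, and their mRNAs were examined here in the cochlea of young and old mice. The members were all protein-coding genes of the table whose symbol begins with Mrpl or Mrps and a number, with FPKM (fragments counted per kilobase of transcript and scaled to the depth of the library) summed over the transcripts of each gene. The rule gave 78 of the 25823 genes in the table. Of these 25823 genes, 19649 had a mean of at least 0.1 FPKM and were tested, and all 78 members were among them. The members lie on 17 chromosomes.

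The samples came from C57BL/6 mice, an inbred strain that loses its hearing early, with no transgene and no treatment in either group. The young mice were 1 month old by the sample labels (given as weeks in the study's methods), and the old mice were 12 months old. Cochlear tissue of 3 mice was mixed into each sample, and each age had 3 samples, so that the spread between samples is a spread between pools. The labels describe the dissected part as the cochlear basilar membrane, which carries the sensory epithelium. The step size of low FPKM values gave an estimated 12100000 to 15420000 fragments per sample. For 75 members, the transcripts of at least 500 nt rested on a median of 326 fragments per sample, with a lowest value of 85.4. Shorter transcripts of these members were left out of the estimate, and they held up to 62.4% of the FPKM of a member. The other members, Mrps21, Mrpl52 and Mrpl33, had only transcripts under 500 nt, for which no fragment number was estimated.

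The mitochondrial ribosome translates the few mRNAs that mitochondrial DNA encodes, all for subunits of the respiratory chain and the ATP synthase. Its ribosomal RNAs come from mitochondrial DNA, whereas its proteins are made in the cytosol and imported. Some of them descend from bacterial ribosomal proteins and others are found only in mitochondria. Inherited defects of several of these proteins impair oxidative phosphorylation, and hearing loss is among the recorded symptoms.

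By function, 51 members belong to the large subunit, which forms the peptide bond, and 26 to the small subunit, which reads the mRNA. Mrps30 and Mrps18a carry a small-subunit symbol but are built into the large subunit and were counted there. The last member, Mrps36, is now known as a subunit of the alpha-ketoglutarate dehydrogenase complex of the citric acid cycle, and it was kept because the rule is by symbol.

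The start regions of the genes were read from RefSeq promoter sequences on GRCm38.p6, each from 250 bases before to 50 bases after a RefSeq transcript start, and 69 of the 78 members had one. RefSeq starts differ from the GENCODE gene ends used for positions elsewhere in the text. The Mrpl18 window therefore lies inside its GENCODE gene and the Mrps18b window just outside it. They were searched on both strands for short letters bound by factors known for nuclear genes of mitochondrial proteins. The letters were GCGCATGC for NRF1, CCGGAAG for the ETS family, which includes GABP, and AAGATGG for YY1. The NRF1 letters and their reverse complement can overlap each other. The ETS letters stood in 26 of the 69 members (37.7%), against 9.93% of the 27025 genes with such a sequence. The YY1 letters stood in 13 members (18.8%, against 7.28%) and the NRF1 letters in 8 members (11.6%, against 3.05%). At least 1 of these motifs stood in 38 members (55.1%), against 18.6% of all genes. These shares describe letters in a window and not binding. The genes set beside the members were not matched to them in level or base composition, and the differences were not tested. Sequences of 4 members are printed below, 5′ to 3′ on the strand of the gene, with the matched letters in capitals. Mrpl18 is shown because it was the only member past the test, Mrps6 because it had the lowest log2 change, Mrpl52 as an abundant member with ETS and YY1 letters, and Mrps18b for its NRF1 letters.
Mrpl18, chr17:12916042-12916341, minus strand: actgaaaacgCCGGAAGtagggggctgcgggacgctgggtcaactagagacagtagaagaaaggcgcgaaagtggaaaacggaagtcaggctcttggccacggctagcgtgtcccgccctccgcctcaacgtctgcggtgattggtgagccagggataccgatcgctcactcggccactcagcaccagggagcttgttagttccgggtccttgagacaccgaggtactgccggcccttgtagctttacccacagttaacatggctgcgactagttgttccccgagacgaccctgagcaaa
Mrps6, chr16:92058086-92058385, plus strand: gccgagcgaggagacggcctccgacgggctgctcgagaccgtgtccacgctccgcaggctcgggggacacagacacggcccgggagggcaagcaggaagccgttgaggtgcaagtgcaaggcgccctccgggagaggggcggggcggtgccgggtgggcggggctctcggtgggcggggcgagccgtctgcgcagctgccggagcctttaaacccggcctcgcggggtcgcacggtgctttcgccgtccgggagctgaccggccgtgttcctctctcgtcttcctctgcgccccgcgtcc
Mrpl52, chr14:54426659-54426958, plus strand: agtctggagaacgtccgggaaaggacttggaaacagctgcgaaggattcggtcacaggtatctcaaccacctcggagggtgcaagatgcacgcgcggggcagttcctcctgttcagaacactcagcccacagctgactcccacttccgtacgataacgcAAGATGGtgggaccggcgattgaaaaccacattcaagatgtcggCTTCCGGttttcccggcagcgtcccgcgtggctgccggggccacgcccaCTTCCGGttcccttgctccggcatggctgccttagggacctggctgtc
Mrps18b, chr17:35916391-35916690, minus strand: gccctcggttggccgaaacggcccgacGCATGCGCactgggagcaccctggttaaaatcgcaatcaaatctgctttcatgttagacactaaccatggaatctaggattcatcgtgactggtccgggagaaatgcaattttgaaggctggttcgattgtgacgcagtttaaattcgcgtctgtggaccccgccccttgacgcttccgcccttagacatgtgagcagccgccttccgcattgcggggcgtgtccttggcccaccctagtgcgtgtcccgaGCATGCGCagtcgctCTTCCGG

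Mrpl18 holds the ETS letters near the upstream end of its window, and Mrps6 holds none of the motifs. In Mrpl52 the ETS letters stand on the strand opposite to the printed one at both matches and the YY1 letters on the printed strand. In Mrps18b both NRF1 matches and the ETS match are on the strand opposite to the printed one.

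The mRNAs of the members were present at moderate to high levels in every sample, and their order hardly differed between the ages. The mean over the 6 samples ran from 4.02 FPKM for Mrps35 to 378 FPKM for Mrps21, a 94.0-fold range, with a median of 29.5 FPKM. The level was between 10 and 100 FPKM for 64 members, under 10 FPKM for 10 members and at least 100 FPKM for 4 members. Across the 78 members, the mean level in the young and the old samples had a Spearman correlation of 0.986, which compares the same genes with the same transcript lengths. The level also went with the length of the leading transcript (Spearman correlation −0.762 across members). FPKM of transcripts near the fragment size depend strongly on the length correction, and 3 of the 10 most abundant members had a leading transcript under 500 nt.

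**Figure D1:**
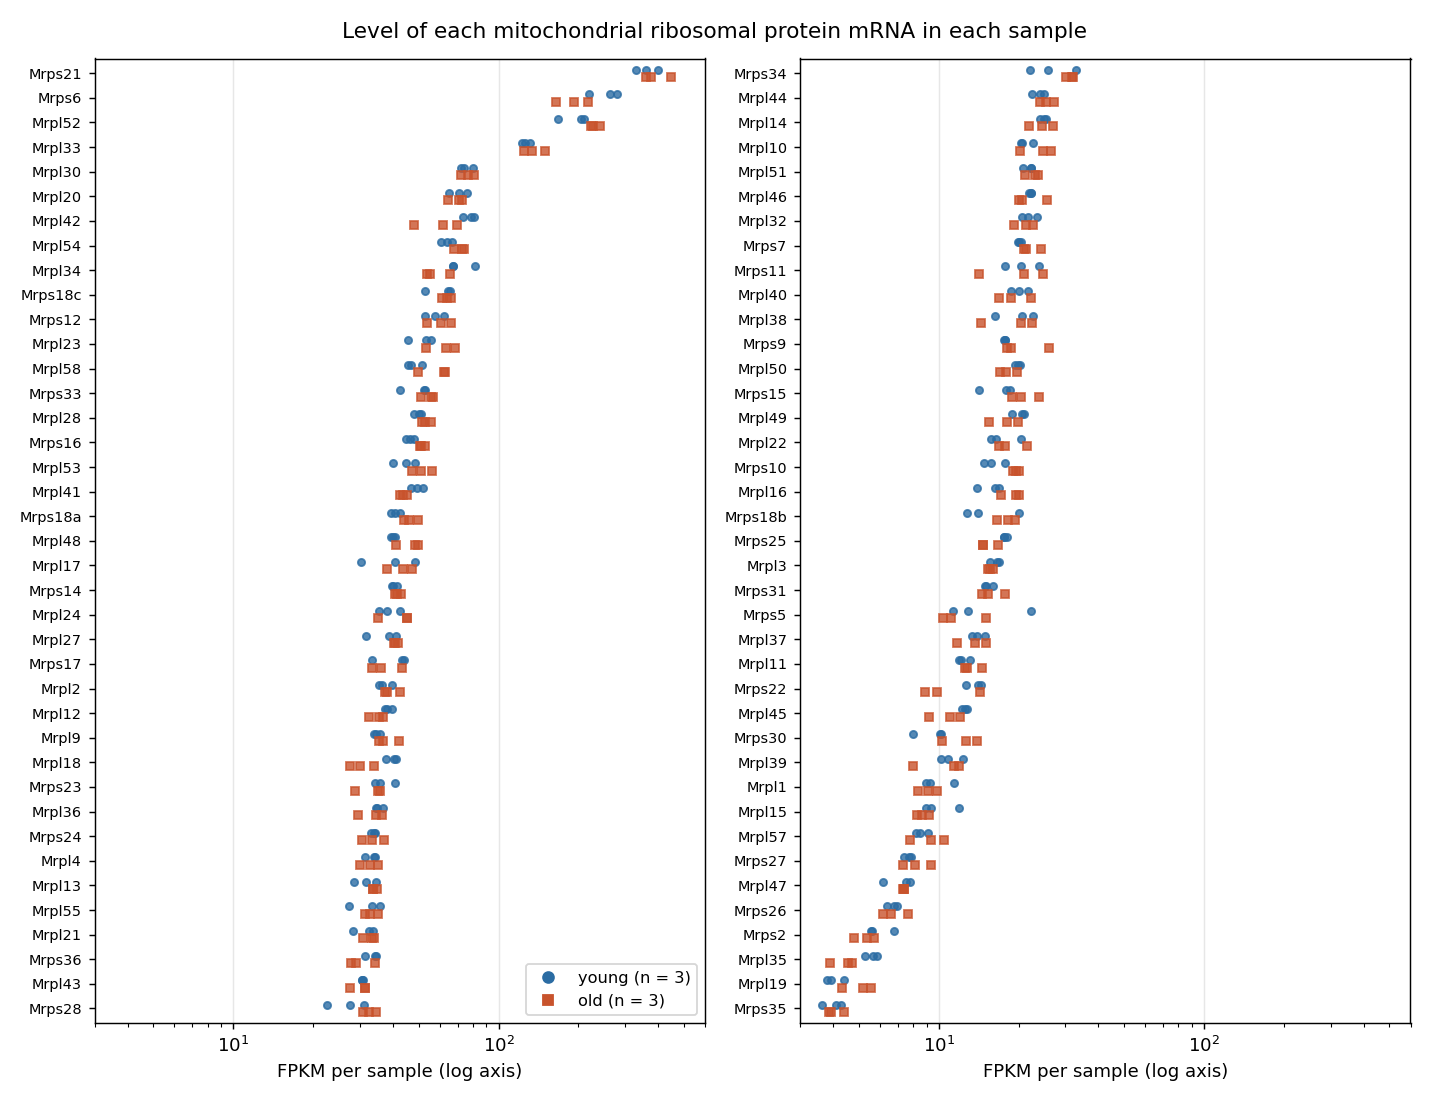
FPKM of each of the 78 members in each sample on a log axis, ordered by mean level, with circles for the 3 young and squares for the 3 old samples. Most members sit between 10 and 100 FPKM, and the symbols of both ages lie close together in nearly all rows.

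Mrps21, a small-subunit protein with a bacterial counterpart, was the most abundant member. It stood at 399, 330 and 360 FPKM in young replicates 1 to 3 and at 375, 359 and 447 FPKM in old replicates 1 to 3. The groups overlapped, and its transcripts are 488 and 405 nt long, so that its level depends strongly on the length correction, as does that of Mrpl52. Mrpl52, a mitochondria-specific protein of the large subunit with a leading transcript of 418 nt, stood at 167, 204 and 209 FPKM in the young samples and 224, 240 and 226 FPKM in the old samples. All old samples were above all young samples (log2 change 0.26, SE 0.09), but the change did not pass the test (limma adjusted p = 0.131). The least abundant member, Mrps35, stood at 4.27, 3.63 and 4.09 FPKM in the young and 4.38, 3.86 and 3.92 FPKM in the old samples, with a log2 change of 0.02 (SE 0.14).

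The question put to the members was whether their mRNA levels differed between the ages. The comparison was made with limma on log2(FPKM + 0.1), with p-values adjusted over all 19649 genes. In old mice, 0 of the 78 members were higher and 1, Mrpl18, was lower. Over all genes tested, 5.41% were called higher and 3.68% lower. By the unadjusted p below 0.05, 10 members were higher and 7 were lower, beside 14.5% and 13% of all genes. The median log2 change (old minus young) of the members was 0.05, beside 0.01 over all genes, with 45 positive and 33 negative values.

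No member was past a log2 change of 0.5 in size (0 of 78), whereas 28.8% of all genes tested were. Because high-level genes vary less, the 10860 other genes within the members' range of mean FPKM were set beside them, and 14.0% of these were past 0.5. The changes of the members ran from −0.41 for Mrps6 to 0.38 for Mrps30. In linear terms, Mrps6 was 24.7% lower and Mrps30 30.4% higher in the group means.

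A missed threshold does not show equal levels, so the 95% intervals were read as well. The interval of every member lay within −1 and 1 on the log2 scale (78 of 78, against 89.2% of the other genes in the members' range). It lay within −0.5 and 0.5 for 55 of the 78 members, a larger share than the 55.3% of these other genes, whose median level was lower. The median distance from a member's change to the end of its interval was 0.25. The widest interval was that of Mrps5, from −0.91 to 0.31. The median SD within groups was 0.13 on the log2 scale for the members and 0.14 for the other genes in their range.

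**Figure D2:**
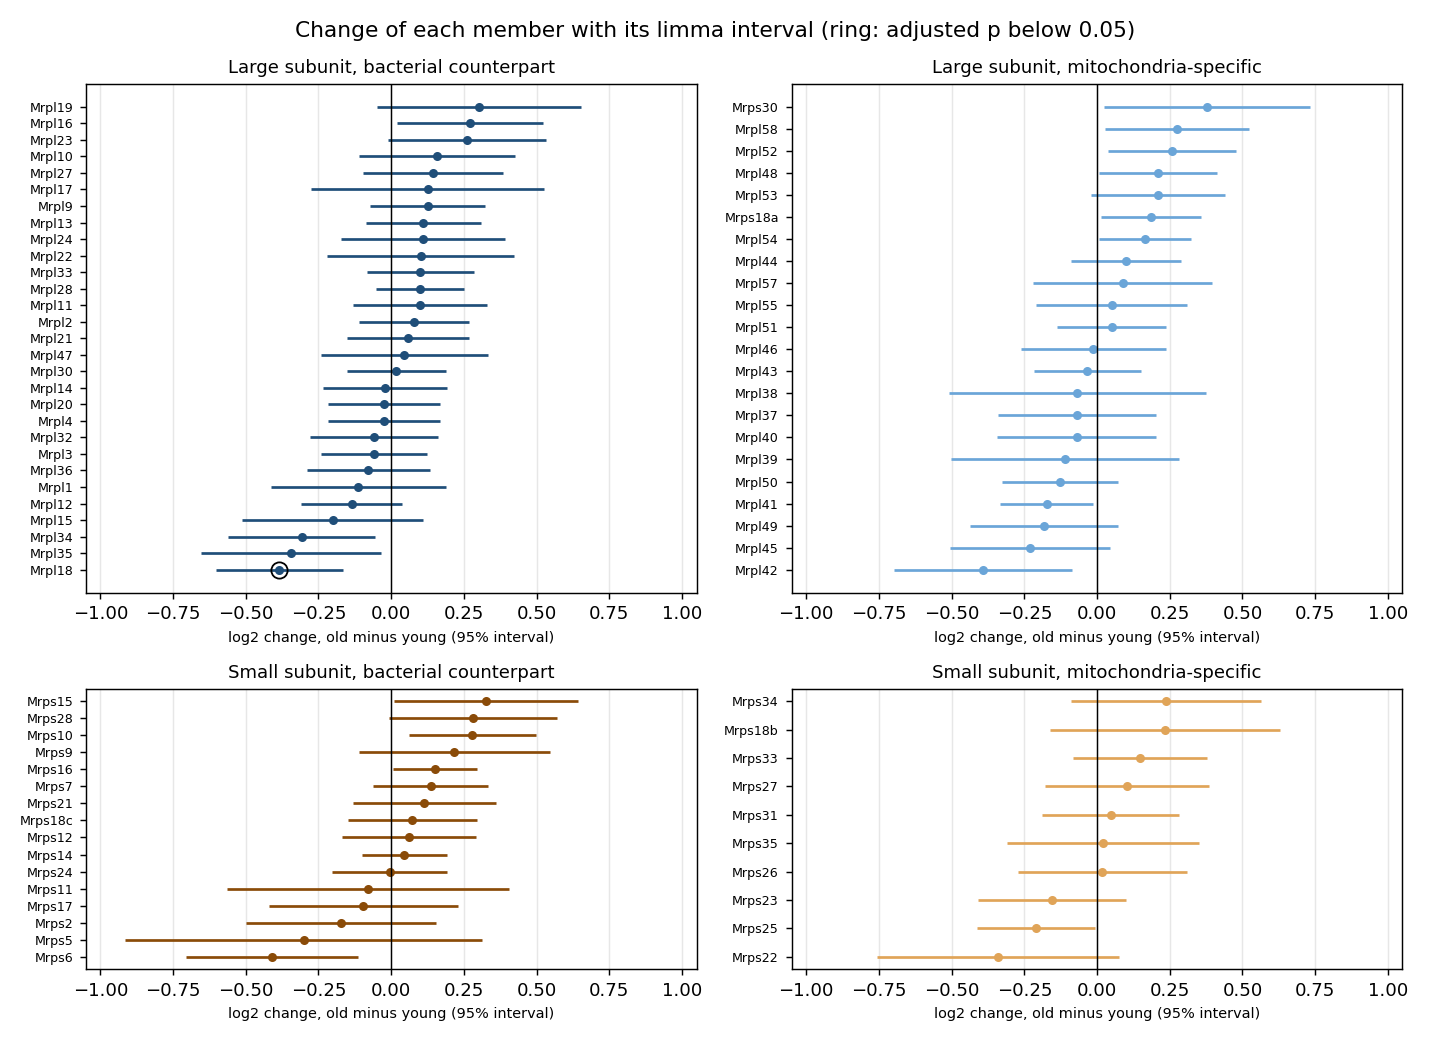
Log2 change (old minus young) of 77 members with its 95% limma interval, in 4 groups by subunit and origin, with Mrps36 not drawn. All intervals lie between −1 and 1, and the single ring marks Mrpl18, the only member with an adjusted p below 0.05.

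**Figure D3:**
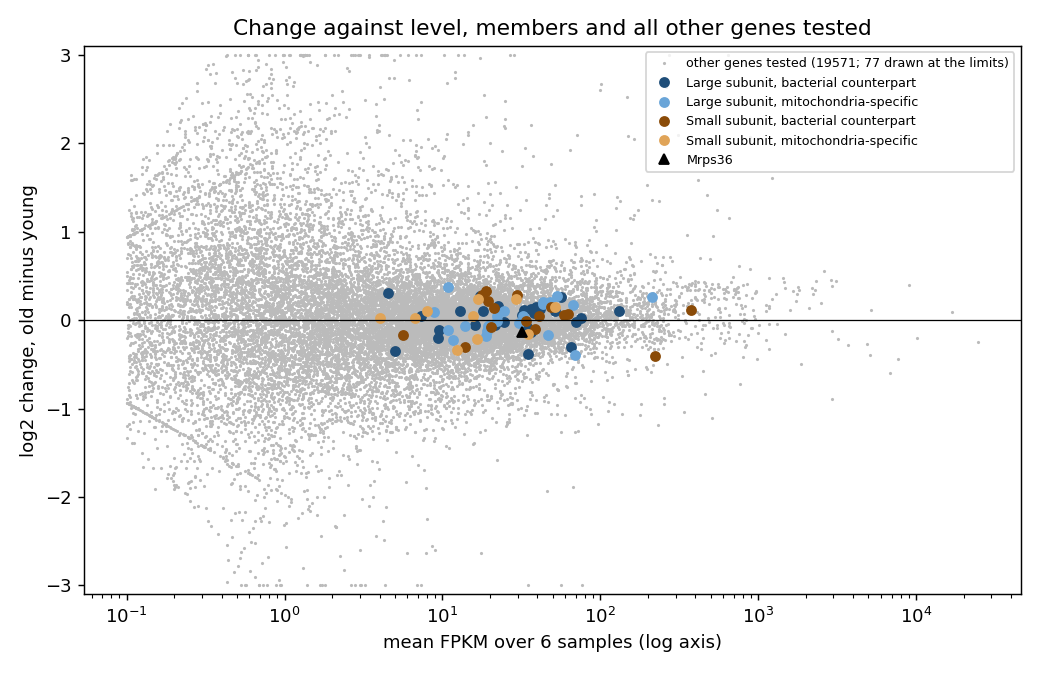
Log2 change against the mean FPKM (log axis) of the members, coloured by subunit and origin, over the other genes tested in grey. The members lie in a narrow band from −0.41 to 0.38, while genes below about 1 FPKM scatter more widely.

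Mrpl18, a protein of the central protuberance of the large subunit, was the member that passed the test. Its gene lies at chr17:12911349-12916345 on the minus strand (GRCm38). It stood at 37.7, 41.0 and 40.3 FPKM in the young samples, from an estimated 466, 518 and 468 fragments, and at 27.4, 34.0 and 30.0 FPKM in the old samples, from 313, 503 and 373 fragments. All old samples were below all young samples. The level fell by 0.38 on the log2 scale (SE 0.09, 95% interval −0.60 to −0.17, limma adjusted p = 0.047), from a mean of 39.7 ± 1.70 to 30.5 ± 3.32 FPKM (SD, n = 3 each). The exact permutation test gave its smallest possible two-sided p of 0.1. The call is close to the threshold. Leaving out any 1 of the 6 samples ended it, with adjusted p from 0.071 to 0.136, while the log2 change stayed between −0.47 and −0.31. In bulk tissue, fewer cells that express a gene and less RNA per cell cannot be told apart.

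The Mrpl18 gene shares 141 exon bases with Tcp1, a subunit of the cytosolic chaperonin, on the opposite strand. Tcp1 was looked up after the values of Mrpl18 had been seen. It stood at 80.9 ± 7.06 FPKM in the young and 80.7 ± 0.72 FPKM in the old samples, with a log2 change of −0.00029 (SE 0.08). The libraries were made with a kit that keeps the strand.

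Mrps6, a small-subunit protein with a bacterial counterpart, had the lowest log2 change. Its gene lies at chr16:92058270-92112227 on the plus strand. It stood at 219, 280 and 263 FPKM in the young samples and 165, 192 and 218 FPKM in the old samples. The groups did not overlap, but the lowest young value and the highest old value were almost equal. The log2 change was −0.41 (SE 0.13) and did not pass the test (limma adjusted p = 0.087). Mrps6 shares 159 exon bases on the same strand with Slc5a3, the sodium/myo-inositol cotransporter gene that lies within it. Slc5a3, also looked up afterwards, stood at 478, 732 and 560 FPKM in the young samples and 298, 329 and 353 FPKM in the old samples. It fell by 0.83 on the log2 scale (SE 0.15, limma adjusted p = 0.025), and it lost the call when any 1 of the 3 old samples was left out (adjusted p from 0.062 to 0.087). How fragments of the shared bases were divided between these genes was not tested.

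The other strongly negative values did not pass the test either. Mrpl42, a mitochondria-specific protein of the large subunit, stood at 73.4, 79.0 and 80.9 FPKM in the young and 48.2, 61.7 and 69.7 FPKM in the old samples (log2 change −0.39, SE 0.13, limma adjusted p = 0.104). Mrpl35, which has a bacterial counterpart and sits in the central protuberance like Mrpl18, stood at 5.67, 5.86 and 5.27 FPKM in the young and 3.91, 4.72 and 4.57 FPKM in the old samples (log2 change −0.34, SE 0.13, limma adjusted p = 0.147). In both genes all old samples were below all young samples, with old replicate 1 the lowest. Mrps22, a mitochondria-specific protein of the small subunit, stood at 12.7, 14.1 and 14.5 FPKM in the young samples and 8.89, 9.89 and 14.4 FPKM in the old samples. Here old replicate 3 lay among the young samples (log2 change −0.34, SE 0.18, limma adjusted p = 0.261).

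Among the largest positive values, Mrps30, a mitochondria-specific protein of the large subunit, stood first. It was at 10.2, 10.1 and 8.01 FPKM in the young samples and 10.3, 12.7 and 13.9 FPKM in the old samples. The groups were separated only by the narrow gap between young replicate 1 and old replicate 1 (log2 change 0.38, SE 0.15, limma adjusted p = 0.160). Mrps15, a small-subunit protein with a bacterial counterpart, stood at 17.9, 18.6 and 14.1 FPKM in the young and 19.0, 23.9 and 20.5 FPKM in the old samples (log2 change 0.33, SE 0.14, limma adjusted p = 0.172). Mrps10, another of this kind, had the tighter groups, with 17.8, 15.8 and 14.8 FPKM against 19.5, 19.0 and 20.1 FPKM (log2 change 0.28, SE 0.09, limma adjusted p = 0.105). Neither pair of groups overlapped, and neither gene passed the test. Over the other settings, the log2 change of Mrps10 ran from 0.15 to 0.35. Mrpl19 of the large subunit (log2 change 0.30, SE 0.15) and Mrps28 of the small subunit (0.28, SE 0.12) overlapped between the ages.

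Counting all members, the old samples lay above all young samples in 12 members and below them in 9 members. Among all genes tested, this held for 17.5% and 16%, so the members' counts were no higher than the background.

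**Figure D4:**
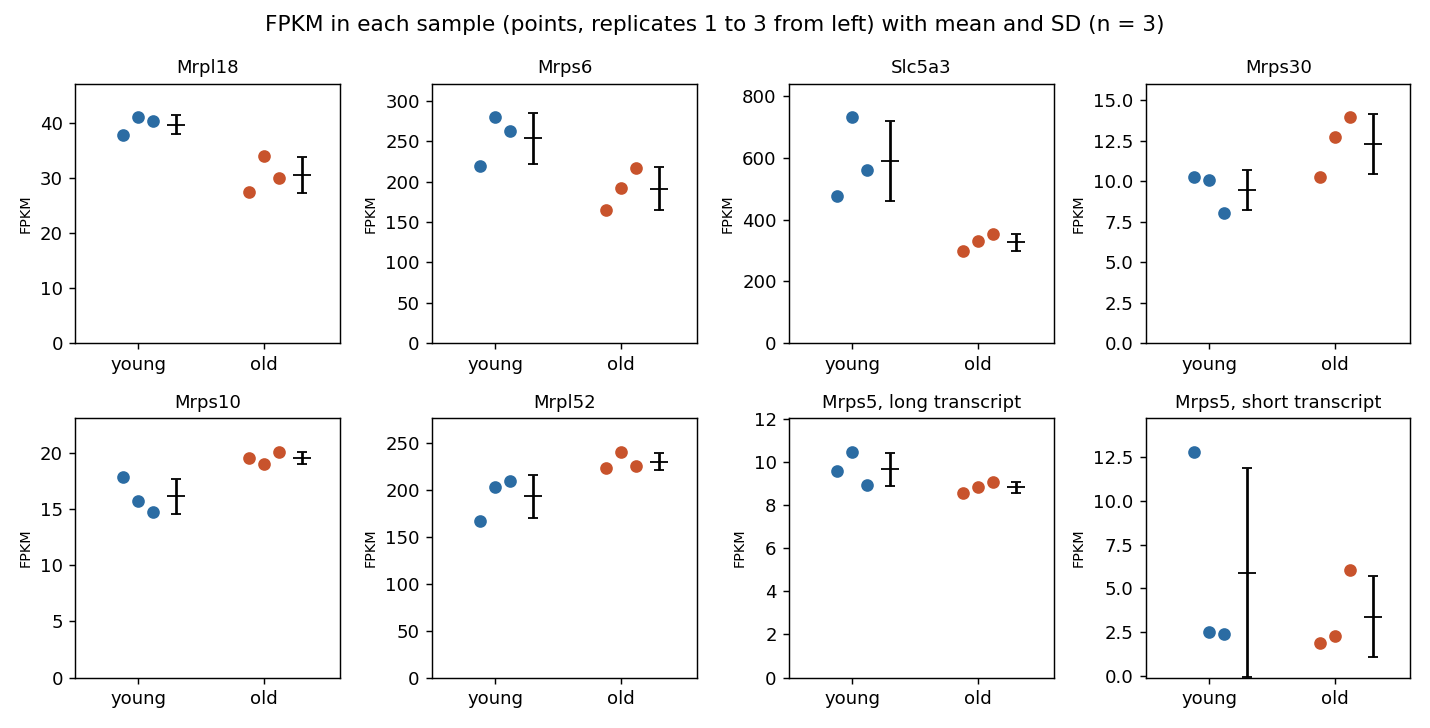
FPKM per sample of Mrpl18, Mrps6, Slc5a3, Mrps30, Mrps10, Mrpl52 and the transcripts of Mrps5, with replicates 1 to 3 from left to right and the mean with SD (n = 3) beside them. Old samples lie below young samples for Mrpl18, Mrps6 and Slc5a3, and the short Mrps5 transcript is highest in young replicate 1, followed by old replicate 3.

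By origin and subunit, the medians of the groups of members were close to each other. Of the 29 large-subunit proteins with a bacterial counterpart, 0 were higher and 1 (Mrpl18) was lower, with a median log2 change of 0.06. Of the 22 mitochondria-specific proteins of the large subunit, 0 were called in either direction, with a median of 0.02. The 16 small-subunit proteins with a bacterial counterpart had 0 calls and a median of 0.07, and the 10 mitochondria-specific ones had 0 calls and a median of 0.03. Mrps36 had a log2 change of −0.14 (SE 0.10) and did not pass the test. Differences between these groups were not tested.

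Proteins at the catalytic and decoding sites showed small differences in value. Mrpl2, which lies close to the peptidyl transferase centre, stood at 35.3 to 39.6 FPKM in the young and 37.4 to 42.4 FPKM in the old samples (log2 change 0.08, SE 0.08). Mrpl3, a core protein of the large subunit, stood at 15.6 to 16.8 FPKM and 15.4 to 16.1 FPKM (−0.06, SE 0.08). Mrps12, the protein of the decoding site, stood at 52.6 to 62.1 FPKM and 53.7 to 66.0 FPKM (0.06, SE 0.10). All 3 overlapped between the ages. With its most abundant transcript alone, the change of Mrpl3 was −0.21. Mrps7, a small-subunit protein in which human variants have been described with deafness, stood at 20.1, 19.8 and 20.4 FPKM in the young and 20.9, 21.3 and 24.3 FPKM in the old samples (log2 change 0.14, SE 0.08, limma adjusted p = 0.346). Mrps2, another core protein of this subunit, stood at 5.54 to 6.80 FPKM and 4.80 to 5.70 FPKM (−0.17, SE 0.14).

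At the stalk, which recruits translation factors, the proteins pointed in opposite directions without passing the test. Mrpl10, which anchors the stalk, stood at 20.3 to 22.6 FPKM in the young and 20.2 to 26.6 FPKM in the old samples (log2 change 0.16, SE 0.11). Mrpl12, the stalk protein, stood at 39.5, 37.4 and 37.8 FPKM in the young samples and 32.4, 35.4 and 36.8 FPKM in the old samples (−0.14, SE 0.07, limma adjusted p = 0.282). The groups of Mrpl12 did not overlap.

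At the exit of the nascent peptide, Mrpl23 stood at 45.4 to 55.6 FPKM in the young and 53.3 to 68.4 FPKM in the old samples (log2 change 0.26, SE 0.12, limma adjusted p = 0.196). Mrpl24, its neighbour at the tunnel exit, had a change of 0.11 (SE 0.12), which ran from 0.05 to 0.33 over the other settings. Mrpl45, which attaches the ribosome to the inner membrane, stood at 12.5, 12.8 and 12.3 FPKM in the young samples and 9.17, 11.02 and 12.05 FPKM in the old samples (−0.23, SE 0.12, limma adjusted p = 0.255). Mrpl44, a large-subunit protein related to RNase III, had a change of 0.10 (SE 0.08). Mrpl58, a peptidyl-tRNA hydrolase that was taken into the large subunit, stood at 45.5 to 51.5 FPKM and 49.8 to 62.5 FPKM (0.28, SE 0.11, limma adjusted p = 0.144). None of these members passed the test.

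The Mrps18 family has 3 members that are related to the same bacterial protein, with Mrps18a in the large subunit and Mrps18b and Mrps18c in the small subunit. In the groups above only Mrps18c was counted as having a bacterial counterpart, and the other two were counted as mitochondria-specific. Mrps18a stood at 42.5, 39.3 and 40.8 FPKM in the young and 43.9, 45.9 and 49.8 FPKM in the old samples, without overlap (log2 change 0.19, SE 0.07, limma adjusted p = 0.154). Mrps18b ranged from 12.8 to 20.1 FPKM in the young and from 16.6 to 19.4 FPKM in the old samples (0.23, SE 0.17). Mrps18c, the most abundant of the family, ranged from 52.9 to 65.7 FPKM and from 61.2 to 66.4 FPKM (0.07, SE 0.09). Only the groups of Mrps18a were apart, and none of the family passed the test.

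The summed level of all members was 3087, 3100 and 3101 FPKM in the young samples and 2970, 3175 and 3317 FPKM in the old samples. The old samples thus lay on both sides of the young ones and differed more among themselves, with an SD of 175 against 7.84 FPKM. The members made up 0.534% ± 0.004 of all FPKM in the young and 0.528% ± 0.025 in the old samples (SD, n = 3 each). The ratio of large-subunit to small-subunit FPKM was 1.49 ± 0.06 in the young and 1.55 ± 0.07 in the old samples (SD, n = 3 each), a difference within the spread between samples. Mrps21 and Mrps6, both of the small subunit, weigh heavily in this ratio. Together they held 19.9% of the members' FPKM in the young and 18.5% in the old samples. Without them, the sum was 2469, 2491 and 2478 FPKM in the young samples and 2430, 2624 and 2653 FPKM in the old samples. Old replicate 1 was the lowest of the old samples in 48 of the 78 members (61.5%), and in 36.3% of all genes tested. Young replicate 3 was the lowest of the young samples in 31 members (39.7%), and in 32.0% of all genes tested. Members of 1 sample share its library, so these counts describe samples and not separate observations.

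The table gives 156 transcripts of the members, of which 155 are protein-coding and 1 is a target of nonsense-mediated decay by annotation. Of these, 146 passed the filter and 0 passed the limma test over 38764 transcripts, with a smallest adjusted p of 0.110. Over all transcripts, 0.748% were called. At an unadjusted p below 0.05, 9 member transcripts were higher and 10 were lower, beside 9.05% and 7.98% of all transcripts. In 59 members 1 transcript held at least 90% of the FPKM of the gene, and in 4 members no transcript held 50%. With protein-coding transcripts only, 77 members were tested instead of 78, so the level of 1 member rested on the decay target.

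Single transcripts decided the value of a gene in a few places. Mrps5, a core protein of the small subunit, stood at 22.4, 12.9 and 11.3 FPKM in the young samples, with young replicate 1 far above the rest, and at 10.4, 11.1 and 15.1 FPKM in the old samples. Its long transcript, of 4481 nt, was even across samples with 9.58, 10.4 and 8.91 FPKM in the young and 8.55, 8.84 and 9.06 FPKM in the old samples. Its short transcript, of 424 nt, stood at 12.8, 2.50 and 2.42 FPKM in the young and 1.86, 2.27 and 6.05 FPKM in the old samples. The high sum of young replicate 1 therefore came from a transcript shorter than 500 nt, for which no fragment number was estimated. Without young replicate 1, the log2 change of Mrps5 moved from −0.30 to −0.01.

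The following transcripts were chosen after their values had been seen. In Mrpl48, which contributed 7 transcripts, 1 transcript of 639 nt stood at 4.33, 6.39 and 7.30 FPKM in the young and 8.54, 11.3 and 12.7 FPKM in the old samples (log2 change 0.86, SE 0.24, limma adjusted p = 0.139). In Mrpl55, a transcript of 757 nt stood at 6.39, 4.39 and 5.99 FPKM in the young and 3.34, 2.16 and 3.68 FPKM in the old samples (−0.86, SE 0.26, limma adjusted p = 0.163). In both cases the ages did not overlap for the transcript, and the test was not passed. The summed level of Mrpl55 was 32.1 ± 4.33 FPKM in the young and 33.1 ± 1.94 FPKM in the old samples (SD, n = 3 each).

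By annotation, 29 members share exon bases with another gene of the table, 4 of them on the same strand and 26 on the opposite strand. For the same-strand cases the division of fragments between the genes is uncertain, as for Mrps6 above.

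Other genes that serve mitochondrial translation were counted from lists by function. Of 5 mitoribosomal proteins with other symbols, 0 were called. Of 26 genes for assembly of the mitochondrial ribosome, 1 was higher and 0 were lower, with a median log2 change of −0.01. The called gene was Rpusd3, a mitochondrial pseudouridine synthase, at 5.98, 6.18 and 6.23 FPKM in the young and 9.76, 7.66 and 9.62 FPKM in the old samples. It rose by 0.54 on the log2 scale (SE 0.13, limma adjusted p = 0.043) and lost the call when any 1 of the 6 samples was left out (adjusted p from 0.071 to 0.117). Taking its most abundant transcript alone, the change was 0.18. Of 15 mitochondrial translation factors, 20 genes for mitochondrial aminoacyl-tRNA synthesis and 14 genes for mitochondrial transcription and RNA processing, 0 were called, with medians of −0.13, 0.01 and 0.00.

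The mRNAs that the mitochondrial ribosome translates gave other values. Of 13 such mRNAs in the table, 0 were higher and 5 were lower, with a median log2 change of −0.40. These were mt-Nd1, mt-Nd2, mt-Nd3, mt-Nd4 and mt-Atp8, which encode subunits of complex I and of the ATP synthase. The clearest of them, mt-Nd4, stood at 262, 232 and 256 FPKM in the young and 195, 152 and 154 FPKM in the old samples and fell by 0.59 on the log2 scale (SE 0.11, limma adjusted p = 0.025). The count was 0 without young replicate 1, old replicate 2 or old replicate 3, 1 without young replicate 2 and 3 without old replicate 1. The transcripts of mt-Nd3 and mt-Atp8 are under 500 nt, so their levels depend strongly on the length correction. With transcripts of at least 500 nt, 10 of the mRNAs were tested and 4 were lower. Over the other settings, the log2 change of mt-Atp8 ran from −0.47 to −0.21, with limma adjusted p up to 0.873. The mitochondrial ribosomal RNAs were not analysed here. Of 37 nuclear genes with complex I symbols, a list taken by symbol alone, 2 were lower (Ndufc1 and Ndufs1), with a median of −0.06.

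The cytosolic ribosome was set beside the mitochondrial one. Of 80 cytosolic ribosomal protein genes, the test called 47 higher and 0 lower with age. Their median log2 change was 0.33, against 0 higher, 1 lower and a median of 0.05 for the members. The old samples were entirely above the young ones in 72 of the 80 cytosolic genes and in 12 of the 78 members. The difference between the lists was not tested. The count of 47 rested on small changes and moved with the setting. It was 8 under quantile normalization, with a median of 0.15, and between 0 and 27 when any 1 of the 6 samples was left out, with medians from 0.29 to 0.36. Cytosolic ribosomal proteins have many near-identical copies in the genome, so the assignment of their fragments is uncertain.

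**Figure D5:**
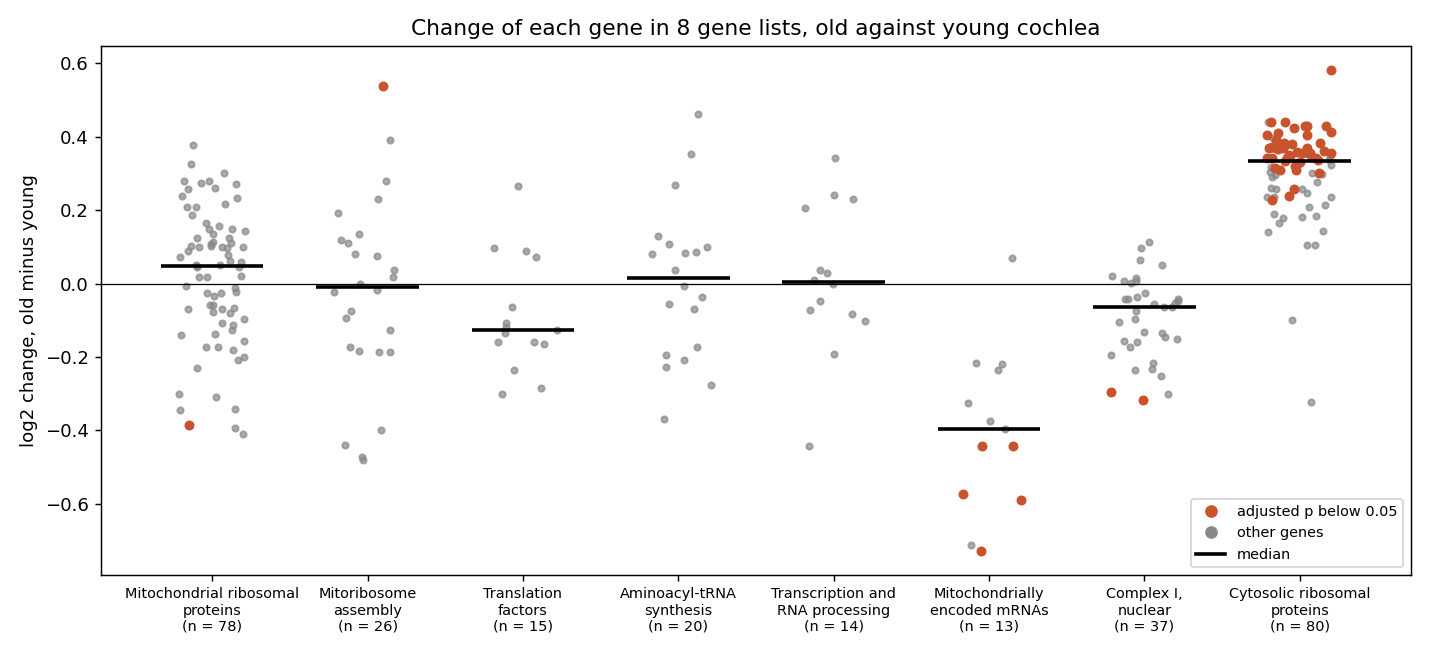
Log2 change (old minus young) of each gene in 8 lists, with a line at the median and filled orange points for an adjusted p below 0.05. The mitochondrial ribosomal proteins centre near 0 with 1 called gene, the 80 cytosolic ribosomal proteins centre at 0.33 and the 13 mitochondrially encoded mRNAs at −0.40.

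Marker genes of several cell types differed between the ages. All 9 macrophage markers were higher in old mice, and their summed level went from 128–200 FPKM in the young to 704–780 FPKM in the old samples. Of 9 hair cell markers, 4 were called lower, and the sum of all 9 went from 711–955 to 370–439 FPKM. Most of this sum was Calb2, also used as a neuronal marker, at 766, 838 and 504 FPKM in the young and 303, 349 and 306 FPKM in the old samples. Of 7 neuronal markers, 5 were called lower (sum 512–1009 to 339–368 FPKM). Among the other lists, 3 of 6 Schwann cell and myelin markers and 3 of 8 bone markers were called lower, and 1 of 8 supporting cell markers was called higher. Of 6 erythrocyte, 5 skeletal muscle and 9 proliferation genes tested, 0 were called. The supporting cell markers were split, with 4 positive and 4 negative log2 changes and a median of −0.09. The log2 change was negative in all 6 Schwann cell and myelin markers. In all 8 bone markers every old sample lay below every young sample, with a median log2 change of −1.57. The bone sum went from 5113–5793 to 4251–4652 FPKM. Most of this sum was 1 gene with a mean of 4891 FPKM, whereas the median bone marker stood at 9.67 FPKM. No marker was at 0 in all samples, and hair cell and neuronal markers were present at both ages. The part of these differences in the values of the members was not tested.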

How the data were processed

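RNA-sequencing of mouse cochlear tissue (3 young and 3 old samples, grouped by their labels) was analysed from the authors' table of FPKM per transcript and sample. The authors extracted RNA with TRIzol, made strand-specific libraries, sequenced paired-end reads, aligned them to GRCm38 and computed the deposited FPKM values with Cuffdiff 2.1.1. The submitters' processing notes also name CASAVA 1.8, TopHat2 2.0.9 and Cufflinks 2.1.1. The scaling between libraries and the annotation release are not given in the sources used here. The values were not scaled further.

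Transcripts were matched to GENCODE M21 and summed per gene. Of 56671 transcripts, 55275 matched, 404 Ensembl transcripts did not, and 992 were the authors' own assemblies. Each unmatched transcript counted as a gene. Genes with a mean of at least 0.1 FPKM were compared (old minus young) on the scale log2(FPKM + 0.1) by the moderated linear model of limma 3.58.1 (R 4.3.3, eBayes, trend fitted), which scale understates the change of low genes. Age was the only term, and Benjamini-Hochberg adjustment ran over all genes, or over all transcripts, at a threshold of 0.05. Fold changes are on this scale unless group means are given. For single genes the exact two-sided permutation test cannot go below p = 0.1. The labels do not say that the pools came from separate litters or days, so p-values measure the spread between these pools.

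Low FPKM values fall on steps that give the depth (94.0% to 95.3% came within 0.1 of whole fragments), for transcripts of at least 500 nt only. Such numbers carry counting error only. Replicate numbers did not pair the samples. Promoter letters were searched in RefSeq sequences of GRCm38.p6. The code was tested on simulated data. Python 3.11.15, pandas 2.3.3, numpy 2.4.6, scipy 1.17.1 and matplotlib 3.10.9 were used for tables and plots.

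The members and the gene lists were chosen with earlier results of these data known. The lists of cytosolic ribosomal proteins and complex I genes were taken by symbol after the members had been analysed. Named members are those past the threshold, the 5 largest changes in each direction, the 3 most and 3 least abundant members, and 18 members with a known role. Named genes of other lists are those past the threshold. Slc5a3, Tcp1, Mrpl33, Mrpl48, Mrpl55, mt-Co1, mt-Co2, mt-Co3 and mt-Atp6 were chosen after their values were seen. Settings varied were the pseudocount, the filter, the scaling, the variance trend, sample weights, a replicate block, each sample left out, and the transcripts summed.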

Additional observations from a re-analysis of the deposited data

How the results depend on the processing

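The members were recomputed under 18 other settings, 6 of which left out 1 sample. The count of members higher in old mice was 0 in all of them, and the median log2 change of the members stayed between 0.03 and 0.06. The 1 member lower in old mice (Mrpl18) was called under 7 settings. The count of lower members was 0 with no filter, without the variance trend, with array weights, with the most abundant transcript and in every fit that left out 1 sample (0 to 0). With the replicate block it was 0 as well, although the numbers did not pair the samples (correlations of deviations 0.02, −0.04 and 0.01). Of 15 transcript settings, 1 called a member transcript, namely 1 without young replicate 3, and the range without 1 sample was 0 to 1. The cause was not tested in any of these cases.

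For cytosolic ribosomal proteins, the count of higher genes was 1 with no filter, 8 under quantile normalization, 0 without the variance trend, 4 with the replicate block and 0 to 27 without 1 sample. For the genes with complex I symbols, the count of lower genes was 0, 7, 0 and 0 under the same settings. It was 1 with the most abundant transcript and 0 to 1 without 1 sample. For the mitochondrially encoded mRNAs, it was 0 with no filter, 5 under quantile normalization, 0 without the variance trend, 1 with the replicate block and 0 to 4 without 1 sample. The cause was not tested.

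Of 38 named genes, these changed sign, all near 0. Mrps21 had −0.090 under quantile normalization and −0.069 with its most abundant transcript. Mrps35 had −0.014 with array weights and −0.046 to 0.069 without 1 sample. Tcp1 had 0.015 with its most abundant transcript and −0.060 to 0.065 without 1 sample. Mrps12 ranged from −0.0074 to 0.14 and Mrps18c from −0.026 to 0.13 without 1 sample.

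With 3 pools per age, a log2 change below about 0.25 was within the interval of a typical member. Levels of transcripts under 500 nt had no fragment estimate.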

Other observations

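Among the mRNAs read by the mitochondrial ribosome, the levels in the table were very uneven. In the 6 samples, mt-Atp8 stood between 6258 and 9278 FPKM and mt-Co1 between 4158 and 6362 FPKM. In the same samples, mt-Co2 stood between 1.75 and 2.93 FPKM, mt-Co3 between 2.74 and 4.23 FPKM and mt-Atp6 between 1.44 and 4.24 FPKM. These values were picked out after they had been seen, and how the fragments of mitochondrial transcripts were assigned was not tested. The summed level of the 13 mitochondrially encoded mRNAs was 17721 to 20021 FPKM in the young and 13705 to 14072 FPKM in the old samples.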
